A study of Mus musculus with 9 samples.

Results

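The Tox family of genes encodes 4 nuclear proteins with an HMG box, a fold that binds DNA, and its loci were followed in the accessible chromatin of tumor-specific CD8 T cells. A region was taken as belonging to the family when it overlapped the body of Tox, Tox2, Tox3 or Tox4, or when the nearest end of a protein-coding gene, within 100 kb, was that of one of them. This gave 34 of the 62963 regions in the data, of which 21 belonged to Tox, 10 to Tox2, 1 to Tox3 and 2 to Tox4. In all, 25 overlapped a gene body and 9 lay outside. The rule used gene positions only, and no measured value.

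The assay was ATAC-seq, which reads where a transposase can reach the DNA, and regions are the union of the peaks called in any list. The cells were P14 cells, CD8 T cells with a transgenic receptor for an LCMV glycoprotein peptide, isolated from P14 mice that also carry a TCF-1-GFP reporter, labelled WT and of strain C57BL/6. Each host carried a subcutaneous B16.F10 melanoma made to express that glycoprotein and received 500000 naive P14 cells, selected as CD44- GFP+, 8 days after the tumor. Donor cells, marked by CD45.1, were sorted as CD44+ CD8 T cells out of the lymph nodes draining the tumor on day 4, day 8 or day 21 after transfer, with 50000 cells per library and 3 samples labelled as replicates per day. The names of the 3 lists of a day carry 1 sequencing sample number, so whether they are separate libraries is not known here. These features were shared by all 3 groups, the tumor model carries a foreign antigen, and the sources do not say how many animals were pooled or whether samples came from separate ones. No group without a tumor and no naive cells were analysed here.

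The 9 peak lists, 1 per labelled sample, held 19499 to 22250 peaks on day 4, 47513 to 50835 on day 8 and 46492 to 51671 on day 21. At the 15109 regions called in every list, the median fold enrichment over local background, a value of the authors' peak caller, was 5.70 to 5.75 on day 4, 8.93 to 9.01 on day 8 and 8.65 to 8.86 on day 21. Day 4 lists were thus shorter and their shared peaks lower, and the part of this difference in the results below was not tested. Lists of the same day differed by less than sampling noise. The chi-square per region of their summit read pileups was 0.417 to 0.444 over the 9 same-day pairs, where Poisson counting gives 1, while the 27 pairs that cross days gave 0.965 to 1.19. A summit is a maximum and varies less than a single count, which may lower both ranges, so that a value of 1 is no strict bound, and the pairs across days lay near it too. Beside the shared sequencing sample number, this was taken as reason to count the 3 lists of a day as 1 sample: all 3 values are printed, their spread may be technical, and no test between days was made.

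Loci of T cell markers were open, and some markers of other cell types were too. All 11 CD8 T cell marker genes, Cd8a and Cd3e among them, had a called region in every list. The 7 B cell marker genes had 0 to 1 of their 21 regions called on day 4, 15 to 16 on day 8 and 12 to 16 on day 21, with Ms4a1 at 0 throughout. The 7 endothelial and stromal genes had 3 to 5, 27 to 29 and 24 to 29 of 41, and none of these genes was at 0 throughout. The 8 myeloid and dendritic genes had 3, then 13 to 17, then 12 to 17 of 22, with Lyz2 at 0, and the 7 melanocyte genes had 4 to 6, 9 to 10 and 10 to 13 of 14, with Tyr, Sox10 and Tyrp1 at 0. The 5 NK cell genes, several of which activated CD8 T cells also use, had 10 to 15, 22 to 25 and 28 to 29 of 36, and the 5 CD4 T cell genes 5 to 8, 22 to 23 and 18 to 22 of 26, with Foxp3 at 0. The share of regions called in every day 8 list and in no day 4 list was 52.4% for the B cell genes, 40.9% for the myeloid, 38.5% for the CD4 T cell, 29.3% for the endothelial, 21.4% for the melanocyte and 11.1% for the NK cell genes, beside 29.0% for the CD8 T cell genes and 25.7% of all regions. The part of other cells in the family's regions was not tested. In bulk libraries, fewer cells with an open region and less open DNA per cell cannot be told apart.

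TOX is needed for the development of CD4 T cells and innate lymphoid cells in the thymus and bone marrow. In CD8 T cells that meet their antigen for a long time, it is induced through calcineurin and NFAT and maintains the exhausted state, with sustained inhibitory receptors. TOX2 is a close relative that acts with TOX in exhausted cells and in follicular helper cells, whereas TOX3 is best known from neurons and breast epithelium. TOX4 is broadly expressed and belongs to a nuclear phosphatase complex with PNUTS and WDR82.

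Some starts of these genes had a peak in every list and others in none, so the DNA at these starts is shown first. RefSeq promoter windows on GRCm38.p6, the assembly of mm10, run from 250 bases before a start to 50 after it and matched 3 of the 4 genes, with 5 windows for Tox2 and 1 each for Tox3 and Tox4. Tox had none. The first Tox2 start has a pair of overlapping windows, both with a peak in every list. The first of these, chr2:163202877-163203176 on the plus strand, and the Tox4 window, chr14:52278896-52279195 on the plus strand, overlapped a peak in all 9 lists. The Tox3 window, chr8:90348203-90348502 on the minus strand, and an inner Tox2 start, chr2:163225203-163225502 on the plus strand, overlapped none in any list. Capitals mark GGGCGG on either strand, the GC box bound by SP and KLF factors, and hits may overlap each other.
Tox2 first start: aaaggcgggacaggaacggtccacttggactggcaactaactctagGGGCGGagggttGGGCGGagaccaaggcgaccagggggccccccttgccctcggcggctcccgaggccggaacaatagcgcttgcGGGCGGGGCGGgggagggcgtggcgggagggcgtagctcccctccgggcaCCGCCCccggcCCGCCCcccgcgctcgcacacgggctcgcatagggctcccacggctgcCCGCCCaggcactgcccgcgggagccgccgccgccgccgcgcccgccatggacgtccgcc
Tox4 start: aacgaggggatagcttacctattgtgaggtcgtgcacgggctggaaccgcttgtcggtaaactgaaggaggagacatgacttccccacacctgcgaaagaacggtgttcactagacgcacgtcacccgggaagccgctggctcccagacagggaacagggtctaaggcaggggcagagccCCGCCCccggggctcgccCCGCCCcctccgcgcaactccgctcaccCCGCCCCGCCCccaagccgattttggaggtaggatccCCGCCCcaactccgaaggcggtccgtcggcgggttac
Tox3 start: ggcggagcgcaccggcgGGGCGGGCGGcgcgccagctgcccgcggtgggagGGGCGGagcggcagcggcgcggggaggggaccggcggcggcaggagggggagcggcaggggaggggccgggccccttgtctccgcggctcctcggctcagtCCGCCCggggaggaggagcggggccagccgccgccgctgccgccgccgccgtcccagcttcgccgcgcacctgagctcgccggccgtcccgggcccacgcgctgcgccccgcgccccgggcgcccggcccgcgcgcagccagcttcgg
Tox2 inner start: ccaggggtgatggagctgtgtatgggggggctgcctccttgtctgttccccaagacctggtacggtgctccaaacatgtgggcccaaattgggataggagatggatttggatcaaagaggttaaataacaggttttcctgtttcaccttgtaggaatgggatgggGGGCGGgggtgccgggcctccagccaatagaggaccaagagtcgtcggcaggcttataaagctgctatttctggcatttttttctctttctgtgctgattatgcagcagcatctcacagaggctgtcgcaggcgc

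The Tox3 window, without a peak, was the richest of these in CpG, the dinucleotide that marks CpG island promoters. It held 52 CpG in 300 bases with 85.3% G and C, and 99.4% of the 32619 promoter windows examined held fewer CpG. The windows with a peak held 38 CpG at Tox2 and 27 at Tox4, while the inner Tox2 start held 7. A further Tox2 window without a peak in any list, chr2:163203936-163204235, not printed, held CCAAT 4 times and 23 CpG, close to the number in the Tox4 window. Its start lies only 267 bases from the region at the first Tox2 start, which was called in every list. GGGCGG occurred 4 times in the Tox3 window, 7 times in the first Tox2 window, 5 times at Tox4 and 1 time at the inner Tox2 start, and in 35.9% of all windows. The core GGAAA, which NFAT factors bind and which was searched on both strands, was found 1 time at the inner Tox2 start and 0 times in the 3 others, against 61.6% of all windows with at least 1. TGANTCA, the AP-1 motif, was in none of the 4 and in 7.85% of all windows. CCAAT was found 2 times and TATAAA 1 time, both at the inner Tox2 start among the 4 printed, and they occur in 37.6% and 13.7% of all windows. Of the 189 windows with at least as many CpG as that of Tox3, 57.1% were called in all 9 lists and 15.3% in none, against 30.0% and 59.1% of all windows. Windows of this CpG content without a peak were thus in the minority.

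The Tox locus carried many regions, and most of them were called from day 8 on. A day 4 list called 5, 5 and 8 of the 21 Tox regions, a day 8 list 18, 15 and 17, and a day 21 list 17, 18 and 16. Each day 8 and day 21 list called more than any day 4 list, and days 8 and 21 overlapped. Tox2 had 4, 4 and 5 of its 10 regions on day 4, then 9, 6 and 7 on day 8, and 5, 5 and 6 on day 21, so day 8 lay above day 4 and day 21 overlapped with both. Among all 8223 genes with at least 3 regions, 80.8% had more regions called in every day 8 list than in every day 4 list, and 78.9% in every day 21 list than in every day 4 list. Having more regions called after day 4 was thus the rule among loci. For day 21 against day 8, 3.61% of these genes had more regions in every day 21 list and 4.11% fewer, and neither Tox nor Tox2 was among them. Tox4 had 1 region in each day 4 list and both in all others. For Tox3, the single region was called in list 1 of day 8 and lists 1 and 3 of day 21, and in no other list.

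**Figure D1:**
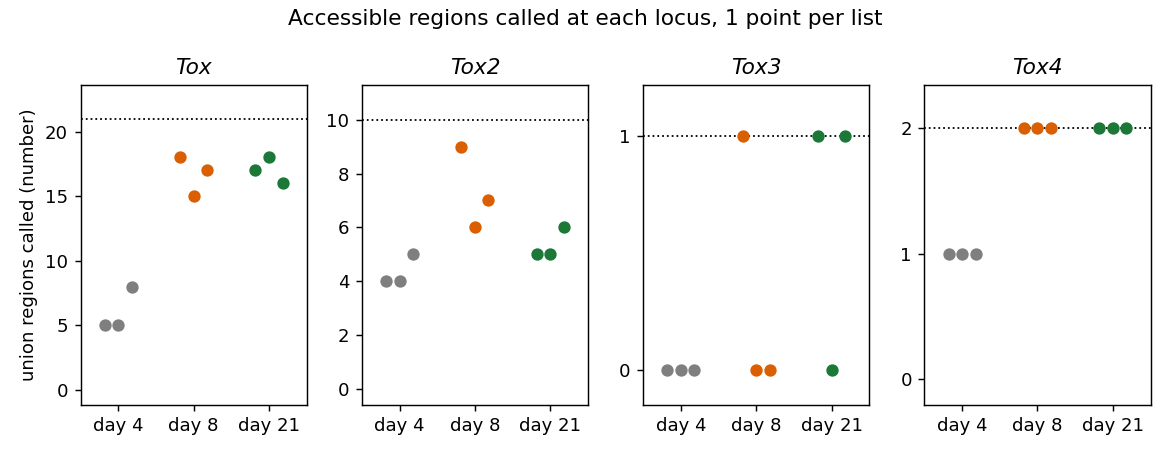
Number of union regions called (vertical axes) at the 4 loci by day after transfer, with 1 point per peak list and the number of union regions of the locus as a dotted line. Tox lists lie between 15 and 18 regions on days 8 and 21 and between 5 and 8 on day 4. Tox2 lists have 6 to 9 on day 8, which overlaps with the 5 to 6 of day 21.

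Of the 34 regions, 10 were called in all 9 lists, 5 at Tox, 4 at Tox2 and 1 at Tox4. That is 29.4%, beside 24% of all regions. A further 7 were called in every day 8 and day 21 list and in no day 4 list, 6 of them at Tox and 1 at Tox4, where 19.2% of all regions had this pattern. The other 17 had mixed calls, and 6 of the 34 were called in a single list, as were 15.9% of all regions.

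The 5 Tox regions called in every list had their middle within 89.9 kb of the gene's start or lay past its far end. Tox lies at chr4:6686353-6991557, is 305 kb long, and is known to be read from its higher coordinate. The start region, chr4:6990179-6991689, is 1511 bases wide, the widest of the family. Its fold enrichment was 3.91, 4.69 and 3.94 in the day 4 lists, 5.99, 5.88 and 5.18 on day 8, and 5.05, 5.90 and 5.50 on day 21. Among the called Tox regions they ranked 4 of 5, 4 of 5 and 5 of 8 on day 4. Later ranks were around the middle of the locus, with 9 of 18, 9 of 15 and 10 of 17 on day 8. On day 21 they were 11 of 17, 9 of 18 and 7 of 16.

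Fold and read depth ranked this start region differently. Its summit pileup, the number of reads stacked at the highest point, was 24, 29 and 29 on day 4, 48, 51 and 49 on day 8, and 49, 60 and 63 on day 21. By pileup it was among the 3 highest Tox regions in every list. The local background under it was 7.18 to 8.66 reads on day 8, while that under the region 66.6 kb into the gene was 3.02 to 3.40. The fold divides by this background, so the lower rank of the start by fold does not mean few reads.

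The highest fold of the locus lay beyond the far end of the gene. This region, chr4:6681670-6682443, begins 3.91 kb past the last base of Tox, and its fold was 6.77, 6.37 and 5.25 on day 4, 9.70, 10.8 and 10.7 on day 8, and 12.2, 10.1 and 13.1 on day 21. Its rank among the called Tox regions was 1 to 3 in every list. Among the 15109 regions called everywhere its fold stood at percentile 69.3, 62.7 and 40.2 on day 4, 60.2, 75.2 and 74.0 on day 8, and 90.5, 68.6 and 96.3 on day 21, and the days overlap.

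Inside the gene, 3 further regions were open on every day. The annotation used here gives gene bodies without exons, so regions inside are not split into exon and intron. The one 20.9 kb into the gene, chr4:6970345-6971027, had a fold of 6.54, 5.25 and 6.85 on day 4, 10.0, 10.1 and 8.84 on day 8, and 11.4, 10.4 and 10.9 on day 21. Its percentile among the regions called everywhere was 83.8, 72.5 and 81.8 on day 21, above the 64.3, 65.8 and 48.8 of day 8, and both overlapped with the 65.6, 38.3 and 72.7 of day 4. By summit pileup, its percentile was also higher in every day 21 list, with 42.2, 31.8 and 39.7 against 16.3, 19.99 and 10.6 on day 8.

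The region 66.6 kb into the gene, chr4:6924435-6925426, had a fold of 4.36, 4.69 and 5.25 on day 4, 9.70, 7.97 and 9.77 on day 8, and 10.0, 7.89 and 10.3 on day 21. Its percentile was 16.4, 24.7 and 39.9 on day 4 and 60.3, 35.2 and 62.3 on day 8, which overlap through list 2 of day 8 and list 3 of day 4. The weakest of the 5, chr4:6901307-6901939, lies 89.9 kb into the gene. Its fold was 3.49 to 4.37 on day 4, 3.88 to 4.61 on day 8 and 4.17 to 5.47 on day 21, and its percentile was 16.3 or lower in every list.

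Regions gained after day 4 were mostly inside or just past Tox. A gained region is one with a peak in every list of the later day and in none of the earlier one, and a lost region is the opposite. Between day 8 and day 4, 9 of the 34 regions were gained and 0 lost, which is 26.5%, against 25.7% gained and 0.00953% lost among all regions. Of these, 7 were at Tox, 1 at Tox2 and 1 at Tox4. The family's share is close to that of all regions. When every list was limited to its 19499 strongest peaks, 0 of the 34 were gained in either later day. Of all regions with such a peak, 3.18% were gained for day 8 and 3.29% for day 21. Many of the 34 had no such peak in any list, so the bases differ and the 0 is not read as a departure.

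The strongest gained Tox region lay 174 kb into the gene, at chr4:6817179-6817725. It had a fold of 7.29, 8.70 and 8.78 on day 8 and 7.88, 6.73 and 7.01 on day 21, and no peak on day 4. Its summits held 27, 35 and 38 reads on day 8 and 34, 29 and 36 on day 21. The lowest summit called anywhere in a day 4 list held 10 to 11 reads, but the threshold at this site is not known. These counts are not scaled for depth between lists. The region 66.6 kb into the gene, called throughout, held 38, 32 and 42 reads on day 8 and 15, 16 and 22 on day 4. A region without a peak has no value in the lists, so its level on day 4 is known only as below what was called.

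A group of 3 regions within a few kilobases, around 89 kb into the gene, had mixed calls. The one called on all days, described above, lies beside chr4:6902122-6902624, with a fold of 5.89, 6.35 and 6.53 on day 8, 6.37, 7.14 and 5.47 on day 21 and no peak on day 4. The third, chr4:6903623-6904029, was gained as well, with a fold of 3.23 to 3.86 on day 8 and 3.35 to 4.29 on day 21. Thus neighbours in the same stretch differed, 1 being called in every list and the others from day 8 on.

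Past the far end of Tox, 2 regions were gained. The region chr4:6675011-6675392, 10.96 kb beyond the gene, had a fold of 6.38, 5.71 and 4.69 on day 8 and 5.61, 4.20 and 4.66 on day 21. The region chr4:6663595-6664118, 22.2 kb beyond it, had 6.06, 4.46 and 4.69 on day 8 and 5.31, 6.60 and 4.42 on day 21. Both had no peak on day 4, unlike the region 3.91 kb beyond the gene, which was called throughout. Near the far end but still inside, chr4:6688664-6689111 had 5.10, 7.13 and 5.79 on day 8 and was called in lists 2 and 3 of day 21 only. The remaining gained one, chr4:6958072-6958647, 33.2 kb into the gene, had 4.34 to 5.00 on day 8 and 4.17 to 4.45 on day 21.

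Another 3 Tox regions, at 41.0, 50.4 and 56.5 kb into the gene, had a peak in list 3 of day 4, the longest list of that day, and in every day 8 list. The one at 41.0 kb, chr4:6950146-6950975, had a fold of 5.18 in that day 4 list, 7.40, 8.81 and 6.86 on day 8, and 7.28, 8.65 and 9.44 on day 21. They do not count as gained, and without that list they would for day 8 against day 4.

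**Figure D2:**
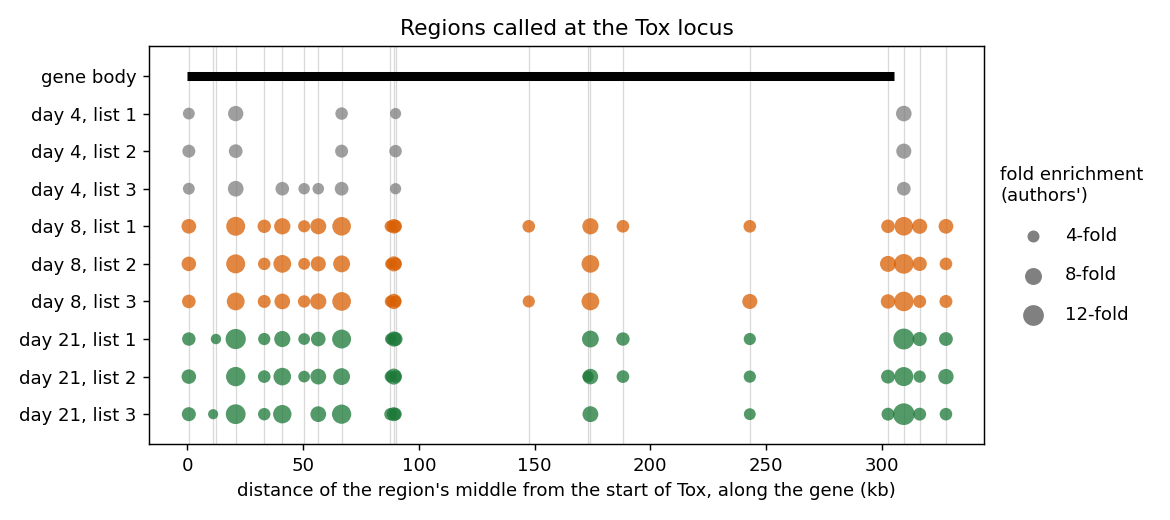
Regions called at the Tox locus in each peak list, placed by the distance of their middle from the gene's start along the gene (kb), with circle area proportional to the authors' fold enrichment and the gene body as a black bar. The first 90 kb and the far end hold the regions of day 4, and the stretch between 100 and 250 kb has circles on days 8 and 21 only.

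Day 21 against day 4 gave nearly the same picture. Of the 34 regions, 8 were gained (23.5%) and 0 lost, against 25.3% and 0.00794% of all regions, and both comparisons share the day 4 lists. At Tox 7 were gained, and 6 of these were also gained on day 8. The additional one is chr4:6748382-6748797, 243 kb into the gene, with a fold of 4.13, 4.20 and 3.93 on day 21, which was also called in lists 1 and 3 of day 8. The single Tox4 gain was shared, and Tox2 had 0.

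Between day 21 and day 8, 0 of the 34 regions were gained and 1 was lost, which is 2.94%, against 1.02% gained and 1.09% lost among all regions. The lost region lay in Tox2. All Tox regions called in 3 of 3 lists of one of these days had a peak in at least 2 of 3 lists of the other. The region 147 kb into Tox, chr4:6843886-6844260, was called in lists 1 and 3 of day 8 and in no day 21 list.

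The lost Tox2 region, chr2:163285700-163286094, lies 82.8 kb into the gene. Its fold was 3.83, 5.94 and 7.17 in the day 8 lists, with 11, 19 and 25 reads at the summit, and no day 4 or day 21 list had a peak there. Regions called in every day 8 list and in no other were 1.08% of all regions. Its 3 day 8 values differed widely, and the lowest stood on 11 reads.

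Tox2, at chr2:163203058-163324172 and 121 kb long, had 4 regions called in every list. The first start region, chr2:163202833-163203919, holds the promoter window printed above and had a fold of 4.51, 5.04 and 5.35 on day 4, 8.88, 8.95 and 8.94 on day 8, and 9.14, 7.38 and 7.53 on day 21. A region 26.2 kb into the body, chr2:163228832-163229625, had 5.47, 5.19 and 5.87 on day 4, 8.77, 9.41 and 9.37 on day 8, and 10.7, 9.13 and 9.36 on day 21, and had the highest mean percentile of the locus. It begins 3.38 kb past the inner start printed above, where no list had a peak. Another, chr2:163253065-163254208, had 4.08, 4.76 and 4.26 on day 4, 8.78, 9.11 and 9.23 on day 8, and 9.46, 8.62 and 7.26 on day 21. The fourth lies 37.9 kb before the gene, at chr2:163164171-163165121, and had 4.47, 4.94 and 4.75 on day 4, 9.01, 8.20 and 7.87 on day 8, and 8.59, 7.60 and 7.99 on day 21. In all 4, every day 8 and day 21 value lay above every day 4 value, as did the median of the regions called everywhere.

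**Figure D3:**
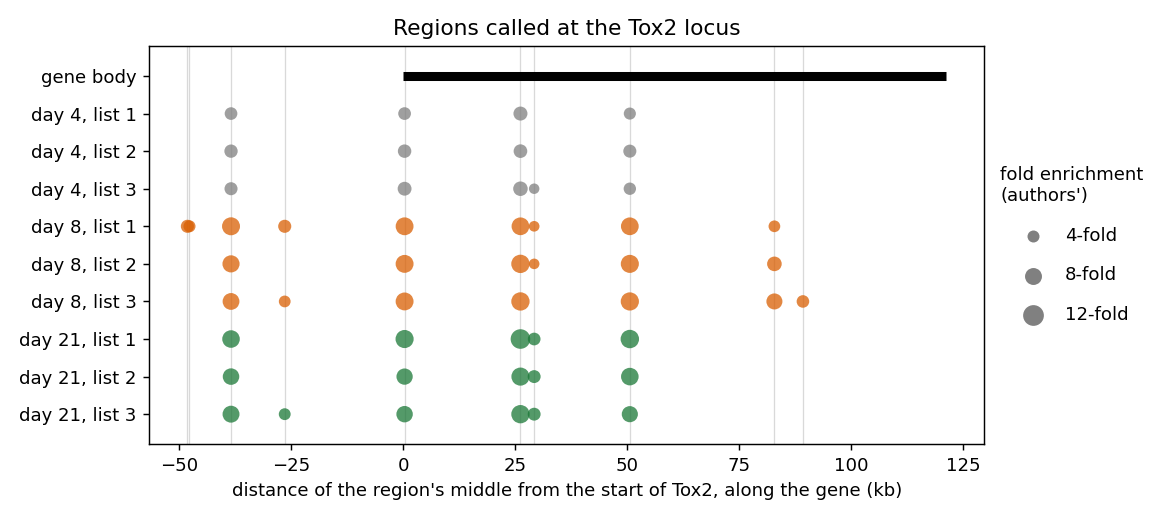
Regions called at the Tox2 locus in each peak list, placed by the distance of their middle from the gene's start along the gene (kb), with circle area proportional to the authors' fold enrichment and the gene body as a black bar. The 4 columns of large circles are the regions called in every list, and the region near 83 kb has circles in the 3 day 8 lists only.

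Because the median fold at the shared regions was higher after day 4, each region was ranked among the 15109 regions called everywhere, a set of equal size in every list. By fold, 3 of the 10 family regions had a higher percentile in every day 8 list than in every day 4 list and 0 a lower one, beside 17.5% and 23.6% of the 15109. All 3 were at Tox2. The region 50.6 kb into the gene stood at 46.4, 51.9 and 54.5 on day 8, against 10.4, 26.5 and 15.8 on day 4. The start region stood at 47.9, 49.4 and 50.2 on day 8, against 20.3, 33.4 and 42.5 on day 4. The region before the gene stood at 49.9, 38.4 and 33.9 on day 8, against 19.3, 30.7 and 27.2 on day 4.

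By summit pileup, a measure added after the values were seen, the same 3 Tox2 regions stood higher on day 8 than on both other days. The start region was at 59.1, 64.9 and 61.0 on day 8, against 34.2, 35.8 and 46.1 on day 4 and 45.4, 23.0 and 24.4 on day 21. For the region 50.6 kb into the gene, day 8 gave 39.4, 30.9 and 40.6, against 12.9, 28.6 and 19.9 on day 4 and 29.9, 26.4 and 15.9 on day 21. For the one before the gene it gave 43.0, 39.2 and 40.6, against 20.1, 32.2 and 37.9 on day 4 and 35.3, 26.4 and 28.96 on day 21. This pattern was found at 7.27% of the 15109 regions by pileup and at 2.87% by fold, and by fold at 0 of the 10 family regions. The day 8 height of Tox2 over day 21 thus depends on the measure.

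Day 21 against day 4 gave 3 of 10 family regions with a higher percentile by fold and 0 with a lower one, beside 18.5% and 24.9% of the 15109, and by pileup 0 and 0, beside 16.2% and 16.1%. By fold these were Tox2 regions, those 37.9 kb before the gene, 26.2 kb into it and 50.6 kb into it. For day 21 against day 8, the region 20.9 kb into Tox was the only higher one by fold and 0 were lower, beside 9.46% higher and 10.6% lower among the 15109. Without list 2 of day 21, 4 were higher, and without list 1 of day 21, 2 were lower, with no shares of the 15109 to set beside these counts. By pileup, that region and the one 89.9 kb into Tox were higher and the 3 Tox2 regions lower, beside 19.7% and 20% of the 15109. The Tox start region had a lower percentile by pileup on day 8, with 27.1, 26.1 and 18.1 against 30.8, 48.9 and 32.0 on day 4, and its percentiles by fold overlapped. By pileup, 16.7% of the 15109 regions were higher and 16.4% lower on day 8 than on day 4.

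**Figure D4:**
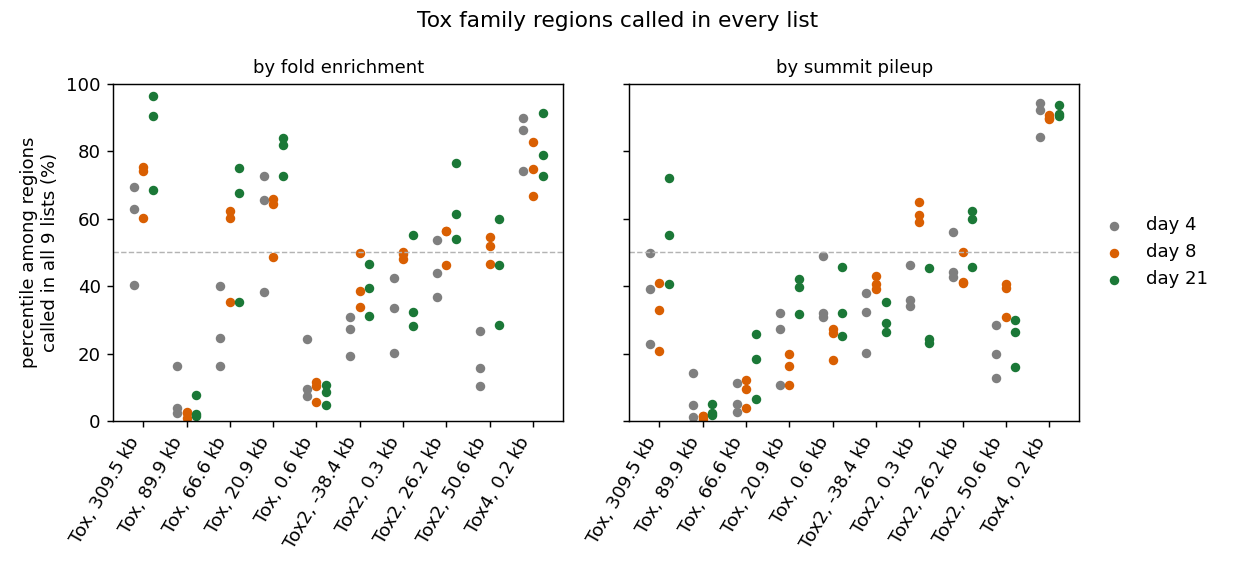
Percentile of the 10 family regions called in every list among the 15109 such regions, by the authors' fold enrichment (left) and by summit pileup (right), with 1 point per list and regions named by gene and distance of their middle from the gene's start. Tox4 lies between 66.7 and 94.4 in all lists over both panels, and the Tox2 start region (0.3 kb) is highest on day 8 by pileup.

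Tox4 had the strongest start of the family. Its region, chr14:52278822-52279950, reaches into the neighbouring gene Rab2b, which encodes a small GTPase of membrane traffic, so that the signal may belong to either start. The fold was 7.08, 8.43 and 7.86 on day 4, 11.6, 10.2 and 10.7 on day 8, and 10.4, 10.97 and 12.1 on day 21, with 47 to 65 reads at the summit on day 4, 99 to 110 on day 8 and 101 to 124 on day 21. Its percentile by pileup was between 84.2 and 94.4 in every list, and the days overlap. The second Tox4 region, chr14:52295652-52296027, begins 0.143 kb past the gene's end and lies in the body of Mettl3, the catalytic subunit of the enzyme that methylates adenosine in messenger RNA. It was gained, with a fold of 6.01, 5.03 and 5.79 on day 8, 5.02, 3.90 and 3.93 on day 21 and no peak on day 4.

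Tox3, at chr8:90247110-90349029, had no called region in its body of 102 kb. Its single region, chr8:90356804-90357154, lies 7.78 kb before the gene and had a fold of 3.51 in list 1 of day 8 and of 5.02 and 3.43 in lists 1 and 3 of day 21, on 10, 16 and 13 reads. The peaks on 10 and 13 reads were near the lowest summits of their lists, 8 and 10 reads. The peak on 16 reads, in list 1 of day 21, lay farther above the lowest of that list, 9 reads. Absence of a peak here says that nothing was detected at this depth.

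Genes with shares of called regions most like those of Tox were picked among 1358 genes with at least 10 regions, by the Euclidean distance over the 9 lists. They were Itga6 (distance 0.124), Prdm2 (0.150), Usp6nl (0.151), Efcab11 (0.155) and Dyrk2 (0.162), where the median distance of all candidates was 0.400. Itga6, an integrin subunit gene, had 3, 3 and 5 of its 14 regions on day 4, then 12, 11 and 12, and then 11, 11 and 11. For Tox2, the nearest were Cpm (0.260), Tmem154 (0.289), Cdc42se2 (0.312), Kcnab2 (0.316) and Tle4 (0.333), where the median was 0.632. With fewer regions, each call weighs more in the share of Tox2.

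On average over its lists, day 8 called 79.4% of the Tox regions and day 4 called 28.6%, a difference of 50.8 percentage points, beside a median difference of 46.7 over the 1359 genes with at least 10 regions. Tox2 had 73.3% on day 8 and 43.3% on day 4, a difference of 30.0. Between day 21 and day 8, the difference was 1.59 percentage points at Tox and -20.0 at Tox2, beside a median of 0.

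**Figure D5:**
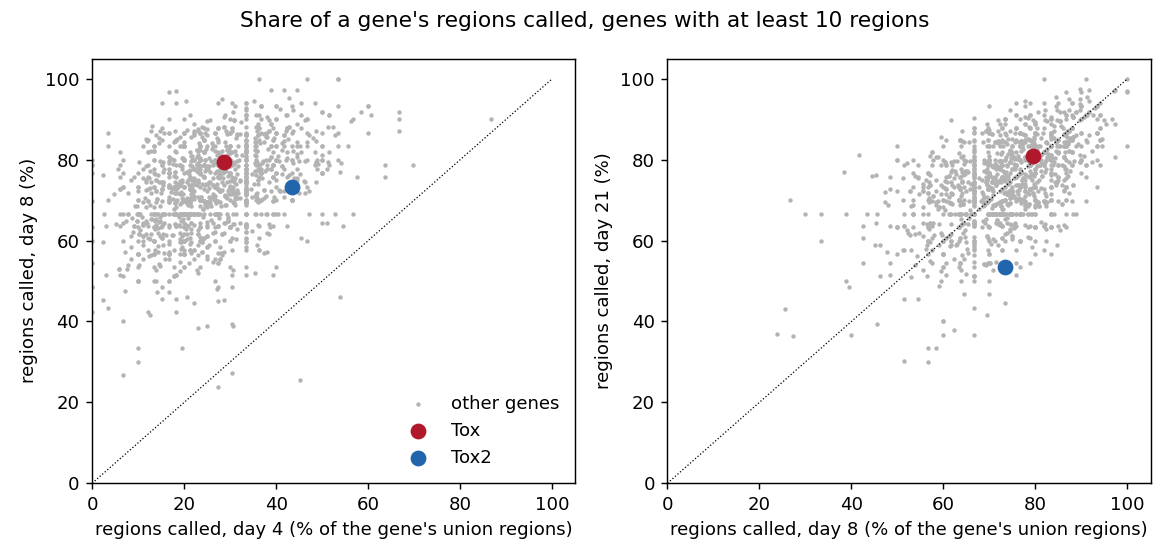
Share of a gene's union regions called per list, averaged over the lists of a day, for day 8 against day 4 (left) and day 21 against day 8 (right), with 1 point per gene among the 1359 genes with at least 10 regions and the line of equal shares dotted. Tox lies within the cloud on both panels, and Tox2 lies below the line on the right, with 53.3% on day 21 and 73.3% on day 8.

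Other genes of the pathway gained regions at shares around that of all regions, 25.7% between day 8 and day 4. Among 14 genes of calcineurin, NFAT and the Nr4a receptors, which act upstream of Tox, 30 of 132 regions were gained between day 8 and day 4 (22.7%) and 0 lost. Nfatc1, the gene of an NFAT factor, had 17, 19 and 24 of its 27 regions on day 8, against 3, 5 and 7 on day 4. Nfatc2, of another one, had 15, 15 and 16 of 19 on day 8, against 4, 5 and 4 on day 4. Nfatc1 and Nfatc2 were named for the largest differences in called regions of their list. Others differed less, and Nr4a1 had 5, 5 and 5 of 6 on day 8, against 4, 4 and 5 on day 4. Between day 21 and day 8, this list gained 1 region (0.758%) and lost 5 (3.79%), beside 1.02% and 1.09% of all regions. In the 12 inhibitory receptor and exhaustion genes, 29 of 91 were gained between day 8 and day 4 (31.9%) and 0 lost, and 2 were gained (2.20%) and 0 lost between day 21 and day 8. Tigit, the gene of an inhibitory receptor, had 11, 10 and 10 of its 14 regions on day 8, against 3, 3 and 3 on day 4. Ctla4, of another one, had 11, 11 and 11 of 14 on day 8, against 5, 5 and 4 on day 4. Tigit and Ctla4 also had the largest differences of their list, and Pdcd1 had 5, 5 and 6 of 8 on day 8, against 3, 4 and 3 on day 4.

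The same held for other HMG-box genes and for the list of complex partners. The 17 HMG-box genes gained 35 of 160 regions between day 8 and day 4 (21.9%) and lost 0. Sox5 had 21, 24 and 26 of its 36 regions on day 8, against 4, 5 and 7 on day 4, and Lef1, a partner of TCF-1 in T cells, 23, 23 and 21 of 27 on day 8, against 11, 10 and 10 on day 4. The 10 genes of the HBO1 acetyltransferase and the PNUTS phosphatase complexes gained 10 of 35 (28.6%) and lost 0. Jade2, an HBO1 scaffold, had 9, 10 and 10 of 12 on day 8, against 4, 5 and 5 on day 4, and Wdr82 3, 3 and 3 of 3 on day 8, against 1, 1 and 1 on day 4. Sox5, Lef1 and Jade2 were named for the largest differences in called regions of their lists, and Wdr82 for the largest difference in share. None of these shares is read as particular to its list.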

How the data were processed

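The submitters' processing notes name mm10 as the build and BWA 0.7.15, Picard, deepTools 2.0 and MACS2 as tools, without their roles. How reads were filtered or shifted, and the caller's settings, are not given there. The authors deposited 1 narrowPeak list per sample, with a score, a fold enrichment ratio over local background and −log10 p-values and q-values per peak. All q were 0.05 or less. These values are the authors' and were used to describe or rank peaks within a list. Read totals are not in the lists.

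Groups and replicate numbers came from sample titles, since the genotype and time tags hold each other's values. Of 353507 peaks, the 353295 on chromosomes 1 to 19 and X were merged into union regions where they shared at least 1 base, and a region was called in a list with a peak in it. Coordinates are 1-based. Gene bodies, 21631 protein-coding ones, came from RefSeq on GRCm38.p6, and regions in another gene counted for a member whose end was nearest. Whole-number summit pileups follow from fold and −log10 p under the MACS2 Poisson formula (tolerance 0.001, at least 99.995% of peaks), which was tested on simulated data.

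Named regions were those at a gene end, those with the highest mean fold percentile, those called in all lists, up to 5 gained regions with the highest percentile, and those gained or lost between days 8 and 21. Others named were chosen after their values were seen. The members and gene lists were chosen with earlier results of these data known. Alternatives were a q of 0.001, the 19499 strongest peaks per list, 50% of a region covered, 50 kb, gene bodies only, regions in other genes left out, and each list left out. Python 3.11.15, numpy 2.4.6, pandas 2.3.3, scipy 1.17.1 and matplotlib 3.10.9 were used.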

Additional observations from a re-analysis of the deposited data

How the results depend on the processing

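On the 19499 strongest peaks alone, 0 of the family's regions were gained between day 8 and day 4 or between day 21 and day 4, and 0 were lost between day 21 and day 8, in place of 9, 8 and 1. Among all regions with such a peak, 3.18%, 3.29% and 1.24% then were, but many family regions had no such peak in any list. The Tox regions called per list were 5, 5 and 5 on day 4, 5, 7 and 7 on day 8 and 6, 7 and 6 on day 21. Tox2 had 4 in every list. The gains, and the higher Tox2 counts of day 8, thus rest on peaks outside the strongest of the longer lists. Gene bodies alone gave 5 gains for day 21 against day 4, with no share over all regions to set beside them. The mean number of Tox regions, 0.333 higher on day 21 than on day 8, had the opposite sign at a q of 0.001 (-0.333), without day 21 list 2 (-0.167) and without day 8 list 2 (-0.5). By summit pileup, the regions called everywhere with a higher and a lower percentile numbered 3 and 1 for day 8 against day 4, 0 and 0 for day 21 against day 4, and 2 and 3 for day 21 against day 8. The cause was not tested. Leaving out 1 list in turn, which makes 3 of 3 rules easier to meet, gave 9 to 12 gains for day 8 against day 4, 8 to 11 for day 21 against day 4, and 1 to 2 losses for day 21 against day 8, the second loss being the region 147 kb into Tox without day 8 list 2. The regions called everywhere with a higher percentile then numbered 3 to 5 for day 8 against day 4 (5 without day 8 list 1 or day 4 list 3), 3 to 6 for day 21 against day 4 (6 without day 21 list 2, 5 without day 4 list 3) and 1 to 4 for day 21 against day 8 (4 without day 21 list 2). Those with a lower one numbered 0 to 2 (2 without day 4 list 1), 0 to 1 (1 without day 21 list 1) and 0 to 2 (2 without day 21 list 1). The shares over all regions with a list left out are not given here. They may rise as well, so none of these counts is read as particular to the family. When a peak had to cover 50% of a region, the family gained 11 regions on day 8 and 12 on day 21 against day 4, of which Tox2 had 4 and 3, beside 30.6% of all regions in both comparisons. No paired analysis was possible because, with the 3 lists of a day counted as 1 sample, no test was made whose samples could be paired; this rests on the choice to count them so. The lists limit the account to called peaks: a region without one has a level below the threshold, not 0.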

Other observations

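The stretch between the start of Tox and its neighbour Car8, 1150 kb long, held 27 further union regions, all more than 100 kb from Tox and so outside the rule. Lists called 2, 1 and 3 of them on day 4, 15, 15 and 13 on day 8, and 20, 18 and 21 on day 21, so each day 21 list called more than any day 8 list, and 7 of the regions were called in a single list. Among all genes with at least 3 regions, 3.61% had more regions in every day 21 list than in every day 8 list, and 15.9% of all regions were called in a single list. The first share is over gene loci, an unlike set, and none was computed for stretches between genes. Called in all 3 day 21 lists and in no day 8 or day 4 list were chr4:7151997-7152368, 160.4 kb before the start of Tox, and chr4:7448218-7448630, 457 kb before it, where 1.02% of all regions were called in every day 21 list and in no day 8 list. Another, chr4:7454896-7455608, was called in all 9 lists. On the other side, between Tox and Nsmaf, 4 further regions lay more than 100 kb from Tox, called 0, 1 and 0 times on day 4, 4, 3 and 4 on day 8, and 4, 3 and 3 on day 21. The stretch between Tox3 and Sall1, 1203 kb long, held 0 union regions. These stretches were chosen after their values were seen, and no test was made.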
